A study of Homo sapiens with 8 samples.

Results

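The RNA described here is the cytoplasmic RNA of U2OS cells, a human osteosarcoma line, after depletion of CHERP. Cells were transfected with 20 nM of an siRNA against EGFP, a gene they do not carry, or with 20 nM of CHERP siRNA#2, and harvested after 48 h. The EGFP siRNA libraries are called control libraries. The sample records give a confluence of 20% at transfection and the methods 30%. Cells were lysed on ice for 5 min in 1% NP-40, which leaves nuclei largely whole, and the supernatant of a brief spin was taken as the cytoplasm. Stranded poly(A)+ libraries were made as biological duplicates, so each siRNA had 2 cytoplasmic libraries, which are 4 of the 8 samples of the series. A single CHERP siRNA was sequenced, so a depletion of CHERP and any other activity of this siRNA cannot be told apart. All 43559 alternative splicing events listed for the cytoplasm were taken, of 132938 listed in the series. They comprised 31924 skipped exons (SE), 1696 retained introns (RI), 3498 alternative 3′ splice sites (A3SS), 2269 alternative 5′ splice sites (A5SS) and 4172 pairs of mutually exclusive exons (MXE).

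CHERP is an SR-like nuclear protein that associates with the U2 snRNP, the particle that binds the branch point of an intron. Together with the U2AF proteins, which bind the polypyrimidine tract and the 3′ splice site, the U2 snRNP takes part in choosing which exons are joined. Exons are usually recognised as units, with factors bound at both ends in contact across the exon. Very short exons, called microexons, leave little room for such contacts and are often skipped. A transcript that keeps an intron is often held in the nucleus, and one that reaches the cytoplasm with a premature stop codon can be degraded by nonsense-mediated decay. RNA in the cytoplasm is therefore what remains after splicing, export and decay.

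The sequences of exons on which the results turn are shown first, from GRCh37 (hg19), in the direction of transcription, with the exon in capitals, the last 25 bases of the upstream intron and the first 8 bases of the downstream intron in lower case. The coordinates are those of the whole stretch. The first set holds coding exons of at most 30 nt, and OSBPL9 at 39 nt, whose inclusion rose after CHERP depletion.
SENP6 exon of 18 nt, chr6:76350378-76350428, plus strand: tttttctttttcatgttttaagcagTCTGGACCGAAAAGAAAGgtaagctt
CSNK1G3 exon of 24 nt, chr5:122941008-122941064, plus strand: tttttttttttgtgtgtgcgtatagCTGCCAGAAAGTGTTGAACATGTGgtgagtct
SNX14 exon of 27 nt, chr6:86248548-86248607, minus strand: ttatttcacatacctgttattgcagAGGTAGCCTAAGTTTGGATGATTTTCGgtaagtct
CLASP1 exon of 24 nt, chr2:122166592-122166648, minus strand: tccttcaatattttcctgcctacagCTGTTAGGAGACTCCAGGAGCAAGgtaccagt
DNAJC19 exon of 25 nt, chr3:180704778-180704835, minus strand: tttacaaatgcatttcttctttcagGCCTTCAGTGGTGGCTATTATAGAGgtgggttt
PPP3CB exon of 30 nt, chr10:75199622-75199684, minus strand: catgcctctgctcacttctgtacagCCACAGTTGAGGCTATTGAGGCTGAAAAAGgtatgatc
FIP1L1 exon of 27 nt, chr4:54306724-54306783, plus strand: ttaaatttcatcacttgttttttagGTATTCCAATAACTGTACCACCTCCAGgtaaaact
MAX exon of 27 nt, chr14:65568256-65568315, minus strand: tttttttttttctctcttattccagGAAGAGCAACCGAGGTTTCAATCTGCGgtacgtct
FLNA exon of 24 nt, chrX:153585611-153585667, minus strand: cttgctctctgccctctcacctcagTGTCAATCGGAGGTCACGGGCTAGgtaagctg
AP2M1 exon of 6 nt, chr3:183898408-183898446, plus strand: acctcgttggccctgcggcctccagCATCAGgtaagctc
OSBPL9 exon of 39 nt, chr1:52221967-52222038, plus strand: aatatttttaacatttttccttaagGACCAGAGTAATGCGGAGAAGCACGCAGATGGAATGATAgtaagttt
The second set holds coding exons whose inclusion fell.
ARAP3 exon of 39 nt, chr5:141034921-141034992, minus strand: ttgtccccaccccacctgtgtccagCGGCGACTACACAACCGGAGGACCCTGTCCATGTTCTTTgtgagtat
KTN1 exon of 84 nt, chr14:56139865-56139981, plus strand: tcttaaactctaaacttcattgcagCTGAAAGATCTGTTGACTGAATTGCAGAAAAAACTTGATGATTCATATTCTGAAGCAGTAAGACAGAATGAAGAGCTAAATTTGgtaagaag
BRD8 exon of 210 nt, chr5:137502199-137502441, minus strand: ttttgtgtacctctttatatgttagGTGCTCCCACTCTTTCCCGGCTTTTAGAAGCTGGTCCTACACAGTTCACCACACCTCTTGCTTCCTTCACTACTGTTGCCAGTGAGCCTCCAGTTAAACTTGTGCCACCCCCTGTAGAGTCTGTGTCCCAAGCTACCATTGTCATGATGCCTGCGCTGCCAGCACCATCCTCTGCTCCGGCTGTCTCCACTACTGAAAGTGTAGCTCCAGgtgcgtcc

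Each control library held 5370756 or 5547604 reads over all events, and each library of depleted cells 6580099 or 5476148, where reads shared by several events count repeatedly. The whole-cell libraries held between 29409956 and 35664568 such reads. The inclusion level of an event is the share of transcripts with the exon, intron or longer form, computed from the reads on each form divided by the effective length of that form. It covers only the transcripts read at that event, which can be a small part of those of the gene. An event was tested when its rarer form had at least 10 reads over the 4 libraries, and was called at a false discovery rate (FDR) under 0.05 in a quasi-binomial F test with Benjamini-Hochberg adjustment within the event type. p-values of events below are from this test. CHERP itself had 31 and 21 reads in control libraries and 3 and 4 reads after depletion. Its abundance was lower by a log2 change of -2.67 ± 0.38 (SE), with adjusted p = 4.04e-05 in limma, and the authors' means for it were 1685 and 209.

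Among skipped exons, OSBPL9, FDPS and SNX14 gained an exon in the cytoplasm, and PI4KB, BRD8 and TNC lost one. Of 5047 SE events tested, 596 (11.8%) changed in inclusion, in 444 genes. Inclusion was higher after CHERP depletion at 236 (4.68%) and lower at 360 (7.13%), and 162 and 237 of these moved by at least 0.1. At 591 of the 596 the levels of both CHERP siRNA libraries lay outside those of both EGFP siRNA libraries. This was counted among called events only, where it follows largely from the call, so it adds no support. These counts rest on having both CHERP siRNA libraries, since 0 SE events were called without CHERP siRNA library 1 and 3 without library 2, against 143 and 267 without either EGFP siRNA library. At an unadjusted p under 0.05, 523 SE events were below the threshold without CHERP siRNA library 1. With limma on log2 odds, 560 SE events were called when events were weighted by their reads, and 0 events of any type when they were not (951 SE events at an unadjusted p under 0.05).

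The largest rise among well covered exons was at OSBPL9, which encodes an oxysterol-binding protein of lipid transport. Its exon of 39 nt, exon 9 of 24 in the annotated transcript (chromosome 1, 52221992 to 52222030, + strand), had inclusion levels of 0.188 and 0.404 in control libraries and 0.915 and 0.828 after depletion. Exons, introns and splice sites named for the largest changes were picked among those whose groups did not overlap, so the lack of overlap is no further evidence. The OSBPL9 means of 0.296 ± 0.153 and 0.872 ± 0.061 (SD, n = 2) differed by 0.576 (FDR = 7.24e-09). FDPS, the farnesyl diphosphate synthase of the mevalonate pathway, gained an exon of 213 nt that holds both coding and untranslated sequence. Its levels went from 0.279 and 0.222 to 0.785 and 0.835 (FDR = 7.10e-13), again without overlap.

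SNX14, a sorting nexin, gained an exon of 27 nt, with levels of 0.173 and 0.0194 in control libraries and 0.510 and 0.735 after depletion (FDR = 2.72e-07). DNM1L, the GTPase that divides mitochondria, gained a coding exon of 78 nt, from 0.232 and 0.304 to 0.670 and 0.853 (FDR = 4.54e-05). SENP6, a SUMO protease, gained its exon of 18 nt, from 0.184 and 0.118 to 0.616 and 0.626 (FDR = 6.16e-07). In these genes the lowest CHERP siRNA level stood above the highest EGFP siRNA level, and the exons were the minor form in control cells and the major form after depletion. CSNK1G3, a casein kinase 1, gained an exon of 24 nt, from 0.116 and 0.0528 to 0.632 and 0.429 (FDR = 3.42e-05). ACACA, which carries out the first step of fatty acid synthesis, gained 24 nt that are no exon in the annotation used here, from 0.283 and 0.361 to 0.693 and 0.835 (FDR = 0.000374).

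The other exons of this group were longer. YDJC gained a coding exon of 178 nt, from 0.252 and 0.225 to 0.744 and 0.580 (FDR = 0.000251). EWSR1, an RNA-binding protein of the FET family, had an event of 2994 nt in a noncoding transcript at 0.615 and 0.548 with EGFP siRNA and at 1 in both CHERP siRNA libraries (FDR = 0.000451). NAV3 had an exon of 69 nt at 0.278 and 0.673 against 1 and 0.789, with FDR = 0.0106, which rose to 0.283 when the event's own spread between libraries was used, so its call rests on the shared dispersion.

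Exons also left cytoplasmic transcripts. PI4KB, a phosphatidylinositol 4-kinase of the Golgi, lost a 5′ untranslated exon of 202 nt, with levels of 0.670 and 0.782 in control libraries and 0.210 and 0.180 after depletion (FDR = 1.61e-05). BRD8, a bromodomain protein, lost the coding exon of 210 nt shown above (chromosome 5, 137502207 to 137502416, − strand), from 0.763 and 0.872 to 0.363 and 0.321 (FDR = 2.81e-05). The BRD8 exon was thus the major form at this event in control libraries and the minor form after depletion.

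TNC, the matrix glycoprotein tenascin-C, had its exon 17 of 28, 273 nt long, at a level of 1 in both EGFP siRNA libraries. That level rests on 19 and 28 inclusion reads and 0 skipping reads. With CHERP siRNA it was at 0.632 and 0.413, with 7 and 9 skipping reads (FDR = 0.0131). In whole cells, with a mean of 927 reads per library, the levels were 0.971 and 0.961 against 0.885 in both libraries, a smaller difference of -0.081. The TNC call was lost with limma on log odds weighted by reads. TLR4, the lipopolysaccharide receptor, lost a 5′ untranslated exon of 120 nt, from 0.930 and 0.952 to 0.590 and 0.351 (FDR = 0.000428). ARAP3, a GTPase-activating protein for Arf, lost the 39-nt exon shown above, from 1 and 0.935 to 0.6 and 0.439 (FDR = 0.000718). ALG2, a mannosyltransferase of N-glycan assembly, lost an exon of 159 nt, from 0.654 and 0.732 to 0.292 and 0.212 (FDR = 0.00657). The remaining named exons fell in the noncoding RNA RP5-884M6.1 (191 nt, from 0.840 and 0.844 to 0.315 and 0.195, FDR = 0.00123), in KIAA0196 (188 nt, from 1 and 1 to 0.528 and 0.395, FDR = 0.000718) and in SETMAR. The SETMAR exon of 332 nt, at 0.824 and 1 against 0.569 and 0.321, had FDR = 0.0211, and 0.0664 with its own spread.

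**Figure D1:**
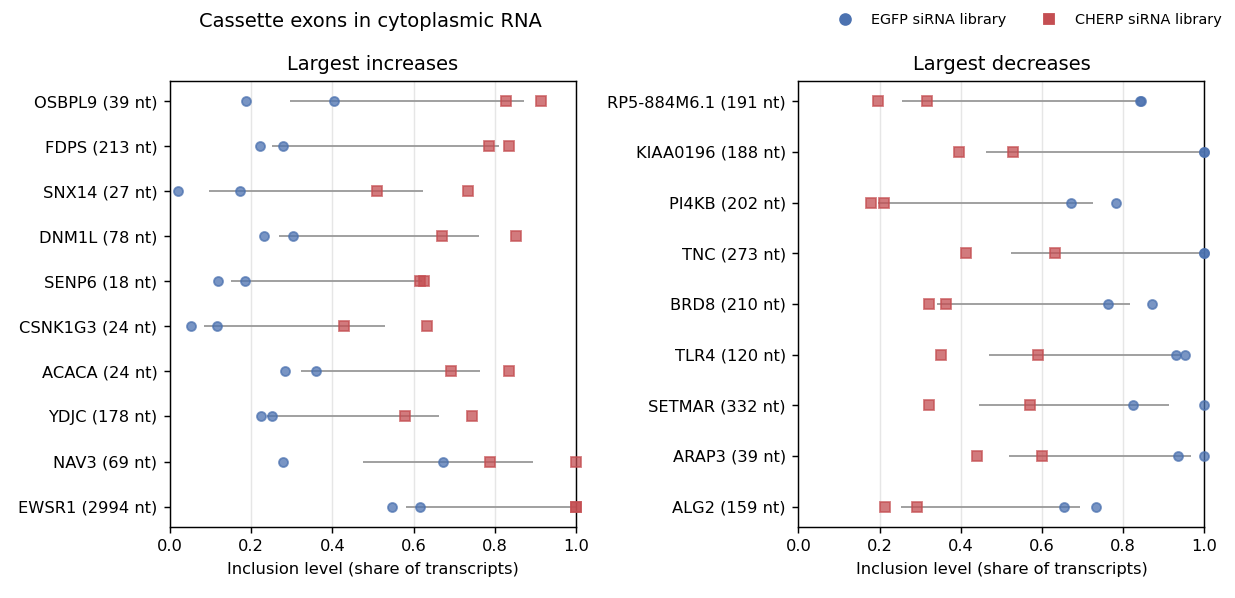
Inclusion level (0 to 1) in each of the 4 cytoplasmic libraries for the 10 skipped exons with the largest rise and 9 of those with the largest fall after CHERP depletion, with points for the single libraries and a line joining the means. OSBPL9 moves from 0.188 and 0.404 to 0.915 and 0.828, and PI4KB from 0.670 and 0.782 to 0.210 and 0.180.

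Exons that gained inclusion were shorter than the rest, and exons that lost it were longer. Among distinct exons, the median length was 77 nt (quartiles 47.5 to 131) for the 219 with higher inclusion, 129 nt (96 to 182) for the 345 with lower inclusion and 110 nt (75 to 154) for all 4713 tested. Of the 137 tested exons of at most 30 nt, 21 (15.3%) gained inclusion and 0 lost it, with 6 below an unadjusted p of 0.05 in the lower direction and 33 in the higher. Over 30 and up to 50 nt, 42 of 324 (13.0%) gained and 5 (1.54%) lost inclusion. Above 50 nt the larger share was the lower one, with 66 higher and 91 lower of 1601 over 50 and up to 100 nt, 42 and 123 of 1410 over 100 and up to 150 nt, 33 and 103 of 1034 over 150 and up to 300 nt and 15 and 23 of 207 above 300 nt. The share that lost inclusion was thus larger in each longer class, from 0% to 11.1%, while the share that gained it fell from 15.3% to 2.98% over 100 and up to 150 nt and was 7.25% above 300 nt.

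The read depth moved with the length class, with a median of 39.8 reads per library for exons of at most 30 nt, 37.4 over 30 and up to 50 nt, 51.2, 57.1 and 53.9 in the next classes and 63.8 above 300 nt. The control inclusion levels had a median of 0.456, 0.446, 0.581, 0.577, 0.453 and 0.280 from the shortest class to the longest. The part of depth and control level in the result was not tested. Over the 137 exons of at most 30 nt, 98 differences were above 0 and 39 below, with a median of 0.033, whereas over all 4713 exons 2071 were above 0 and 2642 below, with a median of -0.0067. With each event's own spread 17 of the short exons gained and 0 lost inclusion, with the minimum on the rarer form raised to 40 reads 14 gained and 1 lost, and with limma on log odds weighted by reads 20 gained and 0 lost. Without CHERP siRNA library 1, however, no short exon was called in either direction, and without library 2 only 1 was.

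**Figure D2:**
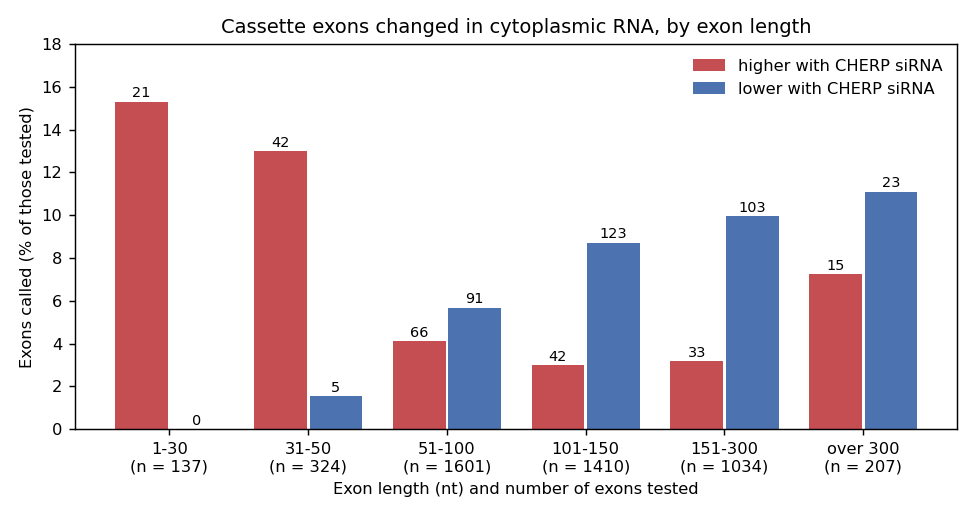
Share of tested skipped exons (%) called with higher or lower inclusion after CHERP depletion, by exon length class (nt). Exons of at most 30 nt were called higher in 15.3% and lower in 0%, and exons of more than 300 nt in 7.25% and 11.1%.

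The 21 short exons lay in 19 genes and were singled out after their values were seen. Over SE events of all lengths 4.68% were called higher. Among the 21, 13 had a length that is a multiple of 3 and keeps the reading frame where the exon is coding, as did 103 of the 137 tested. DNAJC19, a cochaperone of mitochondrial protein import, gained an exon of 25 nt, from 0.0445 and 0.0542 to 0.651 and 0.573, with a mean of 13 reads per library (FDR = 0.000463). CLASP1, which binds the growing ends of microtubules, gained an exon of 24 nt, from 0.158 and 0.0734 to 0.429 in both libraries (FDR = 0.0213).

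PPP3CB and PPP3CC, catalytic subunits of the phosphatase calcineurin, each gained an exon of 30 nt, exon 13 of 14 in the annotated transcripts. In PPP3CB it went from 0.663 and 0.596 to 0.961 and 0.934 (FDR = 0.00243), and in PPP3CC from 0.124 and 0.233 to 0.557 and 0.586 (FDR = 0.0208). The control level was thus high in one gene and low in the other, and both rose. FLNA, the actin cross-linker filamin A, had a mean of 524 reads per library on its exon of 24 nt (exon 30 of 48; chromosome X, 153585619 to 153585642, − strand). It went from 0.746 and 0.766 to 0.911 and 0.915 (FDR = 2.73e-12).

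AP2M1, the mu subunit of the clathrin adaptor AP-2, contained the shortest exon called, of 6 nt. Its levels were 0.553 and 0.584 in control libraries and 0.713 and 0.691 after depletion (FDR = 3.72e-08), so its 6 coding bases were in a share of transcripts larger by 0.134. FIP1L1, a subunit of the polyadenylation factor CPSF, gained an exon of 27 nt, from 0.182 and 0.145 to 0.274 and 0.390 (FDR = 0.0114). MAX, the dimerisation partner of MYC, gained an exon of 27 nt, from 0.280 and 0.374 to 0.483 and 0.498 (FDR = 0.0059). The libraries did not overlap in either gene.

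The ribosomal protein genes among them had deep coverage and small changes. RPS24 had an exon of 22 nt in its 3′ untranslated region, with a mean of 3386 reads per library, which went from 0.114 and 0.1 to 0.247 and 0.229 (FDR = 3.16e-57). A second RPS24 event of 25 nt, which ends at the same base, went from 0.0155 and 0.0150 to 0.0407 and 0.0361, and shares reads with the first. RPL41 gained an exon of 23 nt, from 0.896 and 0.903 to 0.967 and 0.966 (FDR = 0.000582). MAPK1IP1L went from 0.775 and 0.751 to 0.891 and 0.933 (22 nt). SENP6 had a second event of 21 nt that ends at the same base as its 18-nt exon, from 0.195 and 0.0794 to 0.556 and 0.644, so both count the same skipping reads.

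The last 4 of the 21 did not hold with their own spread between libraries. They were CUTC (28 nt, FDR = 0.0274 and 0.0611), PLSCR1 (26 nt, 0.0145 and 0.0689), ACLY (30 nt, 0.0306 and 0.0765) and PITPNA (8 nt, 0.041 and 0.0707), where the second value is the one with the own spread. The abundance of the 19 genes moved both ways, with 6 higher and 4 lower, against 25.8% and 22.5% of all 7293 genes. Among those that were lower were PPP3CB, by a log2 change of -0.85, and FIP1L1, at -0.81. Among those that were higher were PITPNA, at 0.84, and ACLY, at 0.57.

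Exons with higher inclusion also differed from the rest in their surroundings, which is given as a description. The upstream intron had a median of 3256 nt for exons with higher inclusion, 1927 nt for those with lower inclusion and 1958 nt for all tested, and the downstream intron 2489, 1987 and 1946 nt. The GC content of the exon had a median of 46.8%, 50.6% and 50%, in the same order. The polypyrimidine stretch before the 3′ splice site held a median of 76.5% C and T for exons with higher inclusion and for all exons, and 70.6% for those with lower inclusion. Lengths divisible by 3 made up 49.3% of exons with higher inclusion, 45.8% of those with lower inclusion and 49.3% of all. Control inclusion had a median of 0.472 for the first group and 0.525 for the second, against 0.521 for all exons, and the medians after depletion were 0.764 and 0.203.

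The study examined exons of 23 genes by RT-PCR, chosen on its own samples, so they are not independent evidence of a direction. All 23 had an SE event in the cytoplasm, and the event with the most reads of the rarer form was taken, which need not be the exon amplified. Of these, 16 could be tested and 10 were called, 5 higher and 5 lower. Over all tested SE events 11.8% were called, which is not a matched baseline, since the choice of event favoured deeper coverage. When the minimum on the rarer form was raised to 40 reads, 373 of 1143 SE events were called. The 5 that rose were SNX14, CLASP1, ZNF207, ZFAND1 and ASUN. ZNF207, a kinetochore protein, gained an exon of 93 nt, from 0.240 and 0.139 to 0.393 and 0.460 (FDR = 2.81e-05). ZFAND1 gained 40 nt, from 0.105 and 0.0555 to 0.579 and 0.492 (FDR = 0.00119), and ASUN 171 nt, from 0.605 and 0.720 to 1 and 0.945 (FDR = 0.00858).

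The 5 that fell were the nucleoporins NUP50 and NUP62, FN1, KTN1 and SIK3. NUP50 lost a 5′ untranslated exon of 190 nt, from 0.374 and 0.256 to 0.0661 and 0.0847 (FDR = 1.06e-07). NUP62 lost a 5′ untranslated exon of 155 nt, from 0.645 and 0.640 to 0.390 and 0.466 (FDR = 0.0139). Both nucleoporins were also less abundant, by log2 changes of -0.58 and -0.88. FN1, fibronectin, lost a coding exon of 273 nt, from 0.281 and 0.321 to 0.169 and 0.155 (FDR = 0.0101). KTN1, the kinesin receptor kinectin, lost the 84-nt exon shown above, from 0.503 and 0.362 to 0.148 and 0.228 (FDR = 0.000181), and SIK3 lost 144 nt, from 0.737 and 0.901 to 0.444 in both libraries (FDR = 0.0356). The SIK3 call was lost with limma on log odds weighted by reads.

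Another 6 of the 16 were not called. MAP4K2 was at 0.815 and 0.634 against 0.926 and 1 (FDR = 0.0502), without overlap. CDCA7L, SKA3, ATG16L1 and AURKB had FDR between 0.429 and 0.788. The remaining 7 genes, which were TBL1X, MON2, RPP40, OGT, ARAP2, PPP1R12A and CHFR, had too few reads. MON2, with a mean of 4.75 reads on its 18-nt exon, was at 0.167 and 0.243 in control libraries and at 1 and 0.707 after depletion, a difference that was not tested at this depth.

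Retained introns fell in cytoplasmic RNA after CHERP depletion. Of 584 RI events tested, 58 (9.93%) changed, 9 (1.54%) to higher and 49 (8.39%) to lower retention. At all 58 the libraries of the siRNAs did not overlap, which for called events follows largely from the call. Over all 584, 391 differences were negative and 193 positive, and the median retention level was 0.0579 and 0.0538 in the EGFP siRNA libraries and 0.0345 and 0.0343 in the CHERP siRNA libraries. Without either CHERP siRNA library 0 RI events were called (61 and 49 at an unadjusted p under 0.05), and without an EGFP siRNA library 34 and 33. Most changes were small, since 10 of the 58 were of at least 0.1.

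The introns that lost retention were longer than the rest. Their median length was 663 nt (quartiles 345 to 1236), against 324.5 nt (163 to 729) for all 584 and 337 nt for the 9 that rose. The share called lower went from 3.08% of 130 introns under 150 nt to 5.63% of 142 at 150 to under 300 nt, 9.66% of 207 at 300 to under 1000 nt and 16.2% of 105 at 1000 nt or more. Their GC content had a median of 49.9%, against 54.6% for all, and their median retention went from 0.0569 to 0.0169. They had a median of 115.5 reads per library, against 56.5 for all. From the shortest class to the longest the median reads were 73.5, 68.5, 52.0 and 46.5. Control retention had a median of 0.0891, 0.0576, 0.0589 and 0.0336 in the same order. The part of depth and control level in the lengths was not tested.

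DCAF7, a WD-repeat adaptor protein, had the largest fall, in an intron of 4965 nt in its 3′ untranslated region. Retention was 0.569 and 0.477 in control libraries and 0.301 and 0.298 after depletion (FDR = 0.00212), with a mean of 1265 reads per library. COQ6, an enzyme of ubiquinone synthesis, lost an intron of 693 nt, from 0.276 and 0.145 to 0.0222 and 0.0335 (FDR = 0.00299). FNBP1L, an F-BAR protein of membrane bending, lost an intron of 1303 nt, from 0.224 and 0.292 to 0.0668 and 0.101 (FDR = 0.00152). Groups without overlap were a condition for naming these introns.

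PFKM, the muscle form of phosphofructokinase, lost an intron of 252 nt, from 0.101 and 0.183 to 0.0158 and 0.0353 (FDR = 0.00378), while its abundance was higher by a log2 change of 2.08. ARL6IP4 lost an intron of 295 nt, from 0.199 and 0.166 to 0.0854 and 0.0788 (FDR = 0.00723). The 5′ and 3′ splice sites of the COQ6 and ARL6IP4 introns, and of the CHTOP intron that rose, are shown for comparison, with exon bases in capitals.
COQ6 5′ splice site, chr14:74424978-74424986, plus strand: TTGgtagtt
COQ6 3′ splice site, chr14:74425654-74425676, plus strand: aggctcatgtgtccatgcagATA
ARL6IP4 5′ splice site, chr12:123465844-123465852, plus strand: AGGgtgagg
ARL6IP4 3′ splice site, chr12:123466122-123466144, plus strand: accttctccctgcatcacagAGA
CHTOP 5′ splice site, chr1:153609127-153609135, plus strand: GCGgtgagg
CHTOP 3′ splice site, chr1:153610751-153610773, plus strand: cattttgttcgaccttgaagCTT

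Retention rose most at TPTEP1, a transcribed pseudogene, in 520 nt that are no intron of the annotation used here. It was 0.137 in both EGFP siRNA libraries and 0.543 and 0.707 with CHERP siRNA (FDR = 1.40e-08). EEF1D, a translation elongation factor subunit, rose from 0.436 and 0.488 to 0.715 and 0.653 (131 nt, FDR = 5.75e-05). INO80E, a subunit of the INO80 chromatin remodeller, rose from 0.0602 and 0.0377 to 0.148 and 0.186 (155 nt, FDR = 0.00343). CHTOP, a protein of the TREX mRNA export complex, rose from 0.0790 and 0.0855 to 0.155 and 0.143 in an intron of 1641 nt (FDR = 0.00639), and its abundance was lower by a log2 change of -0.54. MAGED2 rose from 0.0357 and 0.0169 to 0.0619 and 0.0707 (190 nt, FDR = 0.00726). Of the 6 genes whose introns the study followed by RT-PCR, DVL3 alone had an RI event, at 0.0735 and 0.0600 against 0.0366 and 0 (FDR = 0.144).

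**Figure D3:**
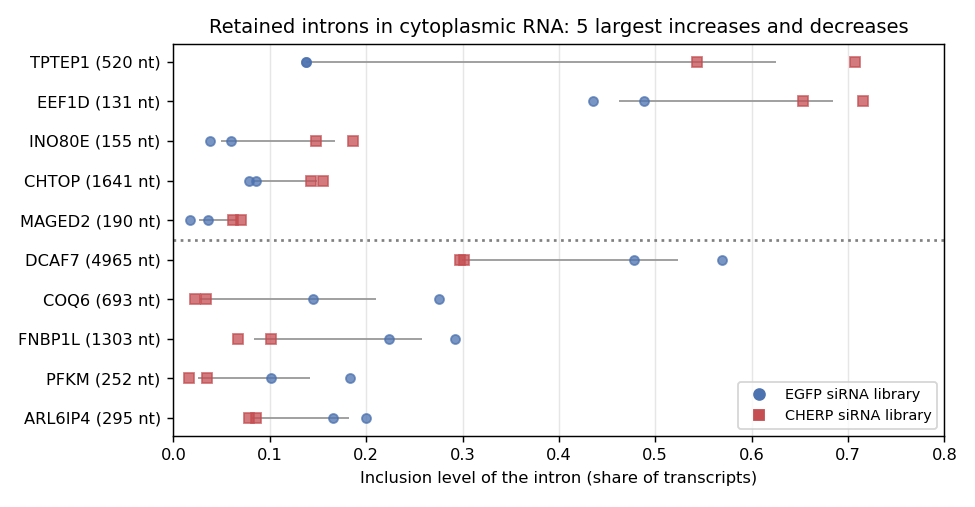
Retention of introns in the 4 cytoplasmic libraries (share of transcripts, 0 to 0.8) for the 5 introns with the largest rise and the 5 with the largest fall after CHERP depletion, with points for the single libraries and a line joining the means. DCAF7 moves from 0.569 and 0.477 to 0.301 and 0.298, and TPTEP1 from 0.137 in both control libraries to 0.543 and 0.707.

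RNAs that stay largely in the nucleus were looked at beside the retained introns. Of a list of 6 nuclear markers, which also holds the mRNA of the transcription factor E2F8, TUG1 alone could be tested, with a log2 change of -0.24 (adjusted p = 0.353 in limma). In the authors' means NEAT1 went from 5271 with EGFP siRNA to 2585 with CHERP siRNA and MALAT1 from 1089 to 796 (E2F8 from 526 to 103), so the mean of both nuclear RNAs in the cytoplasmic fraction was lower after depletion. Their part in the loss of retained introns was not tested. Of the 46 genes with introns of lower retention alone, 42 had an abundance, which was higher in 25 (59.5%) and lower in 4 (9.52%), with a median log2 change of 0.31. Over the 405 genes with a tested RI event and an abundance, 33.3% were higher and 23.0% lower, with a median of 0.08.

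Alternative splice sites changed less often. Of 599 A5SS events 30 (5.01%) changed, 21 to more of the long form and 9 to less, and of 1056 A3SS events 20 (1.89%) changed, 7 to more and 13 to less. At every one of these 50 events the libraries stood apart, which for called events follows largely from the call. Leaving out 1 library left between 2 and 19 A5SS calls and between 0 and 14 A3SS calls, with the fewest A5SS calls without CHERP siRNA library 1, 1 A3SS call without EGFP siRNA library 2 and 0 without either CHERP siRNA library (49 and 48 at an unadjusted p under 0.05).

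At 3′ splice sites, ARL6IP4 and LSM7 moved to the downstream site and ZFAND6 to the upstream one. ARL6IP4 used the upstream site, 24 nt away, at 0.446 and 0.423 in control libraries and at 0.200 and 0.222 after depletion (FDR = 0.0225), at the acceptor whose intron lost retention. The 24 nt between the sites are the last bases of that intron. Reads on them can count for the retention level and for the splice site, so these ARL6IP4 results are not separate. LSM7, a subunit of the LSM ring of U6 snRNA, used a site 4 nt upstream at 0.849 and 0.801 against 0.679 and 0.659 (FDR = 0.0400). Groups without overlap were a condition for naming both events.

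In the other direction, ZFAND6 used a site 36 nt upstream at 0.866 and 0.839 against 0.976 and 0.987 (FDR = 0.0411), which was lost with limma on log odds weighted by reads. CDK13, a kinase of RNA polymerase II, used a site 180 nt upstream at 0.0715 and 0.104 against 0.357 and 0.336 (FDR = 0.0433), and NUSAP1, a spindle protein, one 45 nt upstream at 0.612 and 0.637 against 0.757 and 0.835 (FDR = 0.0433). With their own spread the last values became 0.0541 and 0.0503. The competing sites are shown for a pair of genes that moved in opposite directions, with 20 intron bases in lower case and 3 exon bases in capitals.
ARL6IP4 3′ splice site of the long form, chr12:123466098-123466120, plus strand: ttcccctcctggccttccagCCT
ARL6IP4 3′ splice site of the short form, chr12:123466122-123466144, plus strand: accttctccctgcatcacagAGA
CDK13 3′ splice site of the long form, chr7:40132364-40132386, plus strand: taatataattttgtctttagTAA
CDK13 3′ splice site of the short form, chr7:40132544-40132566, plus strand: tgctggaattttggcaacagGTG

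At 5′ splice sites, RPLP0, the stalk protein of the large ribosomal subunit, used a site 41 nt downstream at 0.379 and 0.299 in control libraries and at 0.658 and 0.831 after depletion (FDR = 0.00135), on a mean of 32.2 reads of a very abundant transcript. STXBP2 used one 264 nt downstream at 0.651 and 0.583 against 1 and 0.886 (FDR = 0.00135). UPP1, uridine phosphorylase, moved the other way at a site 112 nt downstream, from 0.964 and 0.938 to 0.785 and 0.764 (FDR = 5.83e-05).

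DDX5, an RNA helicase, had a long form of 1461 nt at 1 in both EGFP siRNA libraries and at 0.798 and 0.696 with CHERP siRNA (FDR = 0.00516). The calls at STXBP2 and DDX5 were lost with limma on log odds weighted by reads. ZC3H11A was at 0.614 and 0.367 against 0.291 and 0.153 (FDR = 0.0118), and its FDR with its own spread was 0.420. Of 3006 MXE events 23 (0.765%) changed, 12 to more of the 5′ exon of the pair and 11 to less, and between 0 and 5 were called after leaving out 1 library, with 0 without either EGFP siRNA library (172 and 222 at an unadjusted p under 0.05).

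In LETMD1 the 5′ exon of 116 nt gave way to one of 49 nt, with shares of 0.912 and 0.903 against 0.411 and 0.451 (FDR = 0.0112). MED15, a Mediator subunit, went from 0.337 and 0.301 to 0.119 and 0.148 (FDR = 0.00612). SMIM7 went from 0.465 and 0.503 to 0.815 and 0.808 (FDR = 0.0198), and RP5-884M6.1, whose 191-nt exon is described above, from 0.169 and 0.129 to 0.776 and 0.579 (FDR = 0.0276). The LETMD1, SMIM7 and RP5-884M6.1 calls were lost with limma on log odds weighted by reads. COMMD6 (FDR = 0.0276) and XRRA1 (FDR = 0.0435) had FDR = 0.303 and 0.105 with their own spread.

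Gene abundance in the cytoplasm was estimated from the same reads, summed over the SE, A5SS and A3SS events of a gene per length of the form, and tested with limma on log2(value + 0.01), where fold changes of low genes are understated. A gene was called at an adjusted p under 0.05. In bulk RNA, fewer cells of a kind and less RNA per cell cannot be told apart. Of 9779 genes with events 7293 were tested, and 3523 (48.3%) changed, 1884 (25.8%) higher and 1639 (22.5%) lower, of which 465 and 494 moved at least 2-fold. The median log2 change over all tested genes was 0.01. Scaling by total reads in place of median ratios shifted this median to -0.11 and gave 1411 higher and 2099 lower, so the share of higher genes among the calls went from 53.5% to 40.2%. The authors' table lists 6757 genes, 3934 with a higher and 2823 with a lower mean after CHERP depletion. Of the genes called here 2958 are in it, 2956 with the same direction, computed from the same libraries.

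The largest rises included genes of secreted and cell surface proteins. MMP3, the matrix metalloproteinase stromelysin-1, had 811 and 907 reads in control libraries and 12798 and 10412 after depletion, a log2 change of 3.72 ± 0.07 (SE, adjusted p = 4.19e-11 in limma). AFP, alpha-fetoprotein, had 5 and 3 against 110 and 96 reads, a log2 change of 3.93 ± 0.35. SPP1, the bone matrix protein osteopontin, rose by 2.88, the tetraspanin CD151 by 2.76, F3, the tissue factor of blood clotting, by 2.75 and the proteoglycan SRGN by 2.75. Other large rises were CDK16 at 3.67, RBFOX3, a neuronal splicing regulator, at 2.90 and the calponin CNN1 at 2.55. Libraries that did not overlap between the siRNAs were a condition for naming these genes.

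Among the largest falls were genes of chromosome segregation. SMC4, a condensin subunit, had 443 and 529 reads in control libraries and 105 and 74 after depletion, a log2 change of -2.47 ± 0.17 (adjusted p = 8.16e-07 in limma). ESPL1, the separase that cuts cohesin, was lower by -2.42 ± 0.22, and NUF2, of the kinetochore, by -2.29. The other named genes were CCDC34 at -2.98, LIMCH1 at -2.76, TRIB2 at -2.72, LMO7 at -2.37, IL1RAP, a coreceptor of interleukin-1, at -2.33, FXYD6 at -2.23 and SP110 at -2.21. All 10 were picked among genes whose libraries stood apart between the siRNAs. Of the genes the study singled out, CENPA was lower by a log2 change of -1.86, BRCA1 by -1.74, AURKB by -1.03 and BIRC5 by -0.63.

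The cell division lists fell nearly whole. Of 27 tested genes of chromosome segregation 26 were lower and 0 higher, with a median log2 change of -1.20, against 22.5% lower and a median of 0.01 over all genes. KIF20A, the mitotic kinesin, went from 298 and 305 reads to 92 and 58. Of 26 tested genes of DNA replication and repair 25 were lower and 0 higher, with a median of -1.23. RRM2, a subunit of ribonucleotide reductase, went from 1243 and 1146 to 362 and 284 reads (log2 change -1.92), MCM6, of the replicative helicase, changed by -2.10 and TYMS, thymidylate synthase, by -1.77. With other filters and scalings these lists had between 24 and 28 and between 19 and 26 genes lower.

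Genes of RNA processing moved less uniformly. Of 22 tested SR protein and CLK kinase genes 14 were lower and 2 higher, with a median of -0.54, and leaving out 1 library left between 1 and 3 higher. PNISR was lower by -1.73, SRSF11 by -1.07 and LUC7L3 by -0.93, while SRSF9 was higher by 1.64, from 254 and 258 to 938 and 783 reads. Of 17 tested genes of the U2 snRNP and CHERP partners, 3 were higher and 6 lower, with a median of -0.18. SF3B14, the SF3b subunit that contacts the branch point adenosine, was higher by 2.37 ± 0.10, from 267 and 246 to 1493 and 1271 reads, and SF3A3 by 0.99. SF3B1 was lower by -0.60 and SF3B2 by -0.52. With total scaling 9 of the 17 were lower.

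The decay and export lists were mixed. Of 12 nonsense-mediated decay genes 2 were higher and 4 lower, with UPF3B at -2.15, UPF2 at -1.24, UPF3A at -0.85 and SMG6 at 1.00. Of 15 mRNA export genes 1 was higher and 6 lower, with THOC2, of the THO complex, at -1.55, DDX39A at -0.91, THOC1 at -0.76 and THOC5 at 0.79. With total scaling 9 export genes were lower. Median log2 changes were -0.13 and -0.31. Leaving out 1 library left 0 or 1 of the higher decay genes.

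Genes of stress responses and of calcium handling were more often higher than lower, where 25.8% of all genes were higher and 22.5% lower. Of 18 tested genes of the integrated stress response 14 were higher and 0 lower, with a median of 0.57. SARS, the seryl-tRNA synthetase, went from 1220 and 1445 to 3904 and 3325 reads (log2 change 1.39 ± 0.08), ALDH18A1, of proline synthesis, was higher by 1.23, the transcription factor ATF3 by 1.09 and the cystine transporter SLC7A11 by 1.02. Of 17 p53 targets 7 were higher and 1 lower, with the death receptor FAS at 1.61, the cell cycle inhibitor CDKN1A at 1.5, BBC3 at 1.27 and TNFRSF10B at 0.92. Of 14 genes of endoplasmic reticulum calcium 9 were higher and 2 lower, with the calcium-binding chaperone CALR at 1.34, RCN1 at 0.76, the IP3 receptor ITPR3 at 0.63 and RCN2 at -0.69. With total scaling 7 calcium genes were higher and 3 lower.

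Metabolic, matrix and ribosomal genes called here included both directions. Of 20 cholesterol synthesis genes 8 were higher and 3 lower (median 0.21), with SREBF2, the transcription factor of the pathway, at 0.80, STARD4 at -0.92 and INSIG1 at -0.77. Of 14 collagen and matrix genes 6 were higher and 3 lower (median 0.29), with TNC at 1.28, COL4A2 at 0.91, PLOD2 at -1.14 and THBS1 at -1.36. Of 62 cytosolic ribosomal protein genes 28 were higher and 6 lower (median 0.14), with total scaling 17 were higher and 10 lower, and leaving out 1 library left between 2 and 6 lower. In the authors' means 64 of the ribosomal protein genes were listed, 63 higher and 1 lower. Of 5 tested interferon response genes 1 was higher and 2 lower, with ISG20 at 1.01 and IRF9 at -0.74.

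**Figure D4:**
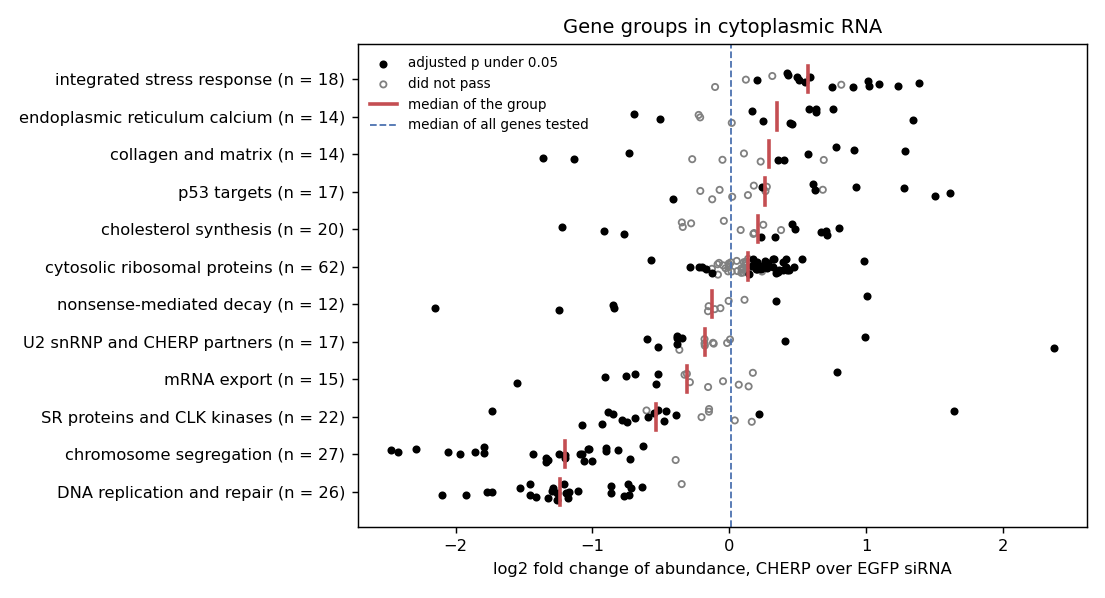
Log2 change in cytoplasmic abundance (CHERP siRNA over EGFP siRNA) of the tested genes of each list, 1 point per gene, with the list median. The medians of chromosome segregation (-1.20) and DNA replication and repair (-1.23) lie below 0 and that of the integrated stress response (0.57) above it.

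Of 10 markers of the osteosarcoma line 8 were in the files and 3 could be tested. VIM, which marks mesenchymal cells, had 7991 and 8000 reads in control libraries and 10316 and 8672 after depletion, and the authors' means for SPARC, a bone matrix protein, were 17050 and 18920. Those of RUNX2, a transcription factor of bone, were 232 and 113, and those of CDH2 509 and 909. ALPL, alkaline phosphatase, was higher by 2.47 and S100A4 lower by -1.41. Of 7 epithelial markers 4 were in the files, and their authors' means were 18900 and 15290 for KRT8, 15010 and 11770 for KRT18, 251 and 807 for CLDN4 and 12.9 and 136 for CDH1. KRT8, the only one tested, was lower by -0.50. None of the 6 blood cell markers had an event or a listed mean.

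Genes with exons that lost inclusion were more often higher in abundance. Of 254 such genes 42.5% were higher and 18.5% lower, with a median log2 change of 0.23, and of 164 genes with exons that gained inclusion 34.8% were higher and 30.5% lower, with a median of 0.01. Over all 2753 genes with a tested SE event and an abundance the shares were 30.9% and 23.9%, with a median of 0.06. Among genes with an exon gained whose length is a multiple of 3, 29.2% were higher and 38.5% lower, and where it is not, 40.2% and 21.7%. For exons lost, these shares were 41.0% and 21.5% with a multiple of 3 and 43.7% and 17.9% without. Abundance and inclusion come from the same reads, so these shares are a description.

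Named genes show the combinations. FDPS gained its exon and was higher in abundance by a log2 change of 0.34. PI4KB lost its 5′ untranslated exon while its abundance was higher by 0.96, and TNC lost its exon 17 with abundance higher by 1.28. TPTEP1 kept more of its intron and was higher by 0.94. DNM1L gained its exon and was lower by -0.38.

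The cytoplasmic changes largely had the direction of those in whole cells, where the same siRNAs were used. Of 673 called cytoplasmic events that could be tested in whole cells, 636 moved in the same direction there, and 312 were called there. For SE events these were 520 and 274 of 548, and for RI events 52 and 8 of 57. The median size of the difference over the 673 was 0.139 in the cytoplasm and 0.0814 in whole cells. The 673 were picked by their call in the cytoplasm, which favours larger cytoplasmic differences, so these medians do not compare the fractions. The reads are not equal in kind, since the skipping form has an effective length of 73 in the cytoplasmic and 144 in the whole-cell tables. In whole cells DNM1L differed by 0.163, PI4KB by -0.254, OSBPL9 by 0.423 and SNX14 by 0.463. Other named events hardly moved there. KIAA0196 differed by 0.005 against -0.539 in the cytoplasm, SETMAR by -0.059 against -0.467 and the EEF1D intron by 0.028 against 0.222. Their whole-cell FDR was 0.977, 0.774 and 0.857. None of them was called different between the fractions by the interaction of siRNA and fraction (FDR = 0.347, 0.827 and 0.1585). Of the 21 short exons 18 were in the whole-cell table, all 18 with a difference above 0 and 14 called.

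The change itself was tested for a difference between the fractions at 8502 shared events, and 10 (0.118%) differed (625 at an unadjusted p under 0.05). On simulated reads this test recovered 16.5% of 200 SE events changed by 1.5 in natural log odds in whole cells only. The low count therefore does not show that the fractions changed alike. Without EGFP siRNA library 1 or CHERP siRNA library 1 this count was 5, and without CHERP siRNA library 2 it was 19. Among RI events, SRSF5, an SR protein, fell in the cytoplasm from 0.125 and 0.101 to 0.0494 and 0.0455 (FDR = 1.40e-08), and in whole cells was at 0.407 and 0.402 against 0.347 and 0.370 (FDR = 0.429). The changes differed with FDR = 0.0156 by the interaction of siRNA and fraction. The differences in level were -0.0655 in the cytoplasm and -0.0456 in whole cells, whereas the test compares changes in the odds of inclusion.

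**Figure D5:**
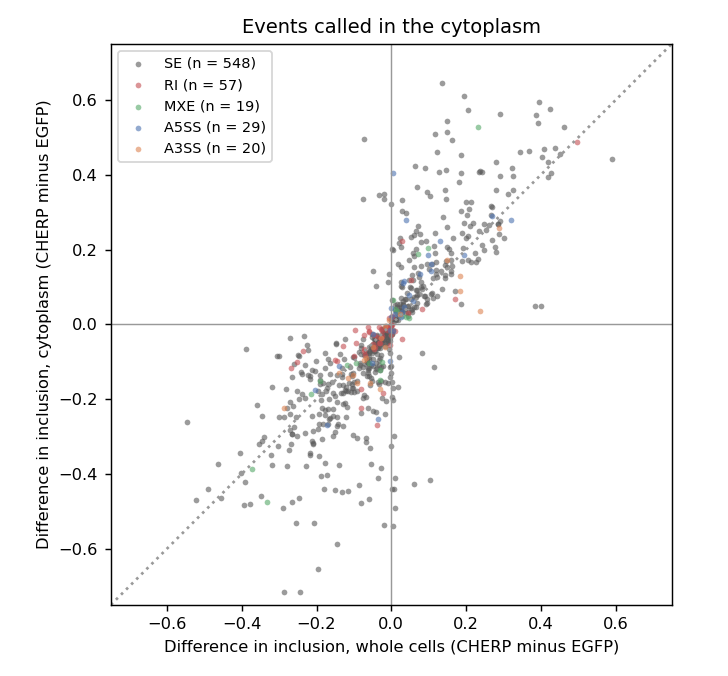
Difference in inclusion level (CHERP siRNA minus EGFP siRNA) in the cytoplasm against whole cells for the called cytoplasmic events found in both. Of 673 events, 636 have the same direction in both fractions.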

How the data were processed

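RNA was sequenced from the cytoplasm of U2OS cells with EGFP or CHERP siRNA, 2 libraries each. Per the labels and methods, the authors mapped TruSeq stranded mRNA reads from a NextSeq to hg19 with STAR 2.5.2b and ran rMATS, whose version is not given in the sources used here. The deposited tables hold reads on the inclusion and on the skipping form of each event, without normalization, with the 2 libraries joined in 1 cell in an order that carries no replicate number. The deposited expression file holds the authors' signal per gene, a mean of normalized counts over the libraries of an siRNA (RSEM 1.2.25, GENCODE 19), for genes past the authors' threshold. Its columns do not name the siRNA, and the direction was set by CHERP, the depleted gene. The authors' p-values, FDR, inclusion differences, fold changes and posterior probabilities, and 20 columns of per-library inclusion levels, were not used.

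Inclusion was tested with a quasi-binomial F test whose Pearson dispersion was moderated across events of a type with limma 3.58.1 in R 4.3.3 (floor 1). The moderation gave infinite prior degrees of freedom for SE, RI and A5SS, so a single event's spread had no weight there. On simulated reads whose dispersion varied between events, 22.2% of SE calls were false at a change of 1 in natural log odds. At a change of 1.5 it was 14.7%, both above the 0.05 threshold, and 7% and 29% of the changed events were recovered. With the fitted dispersion kept, 3.23% and 8.57% of SE calls were false, and 15% and 32% of the changed events were recovered. The own spread was tried as an alternative. Gene abundance was reads per length summed over SE, A5SS and A3SS events, scaled by median ratios, and tested with limma after adding 0.01 and taking log2, in genes averaging 20 reads or more. CHERP, below that mean, was read from the fit without the filter. Levels do not compare between genes, since genes have different numbers of events. The libraries are biological duplicates, and replicates differed beyond sampling noise (chi-square per gene 1.94 and 1.87 over 4570 genes). Depth per library was between 5370756 and 6580099 reads on events.

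Named were the 10 SE events, 5 RI events and 3 events of each other type with the largest change each way. These were picked among called events averaging 20 reads or more with libraries apart. Also named were the 10 genes with the largest change each way, among called genes averaging 50 reads or more with libraries apart. Up to 4 members per list were named, and 6 genes with both a changed event and a changed abundance. Libraries apart in events and genes of largest change were thus required and are no further evidence. Some named items are not reported here. The members and lists were chosen with earlier results of these data known. Sequences came from GRCh37 with pysam 0.24.0, and gene parts from GENCODE 44 lifted to GRCh37. Tables were handled in R with the data.table package, version 1.17.8, and in Python 3.11.15, numpy 2.4.6 and pandas 2.3.3, and drawn with matplotlib 3.10.9.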

Additional observations from a re-analysis of the deposited data

Results flagged for a closer look

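At 10 events the change after CHERP depletion differed between cytoplasm and whole cells by the interaction of siRNA and fraction, with FDR under 0.05. The values are the cytoplasmic minus the whole-cell difference in inclusion level. The test compares the change in the odds of inclusion, so its FDR does not refer to these values. Among introns they were -0.0199 at SRSF5, -0.0918 at SMYD2 and -0.0214 at SLC25A3. At SMYD2 the whole-cell retention was 0.0410 and 0.0466 in control libraries and 0.160 and 0.0987 after depletion, and the cytoplasmic 0.0200 and 0.0240 against 0.0142 and 0.0173. Among skipped exons they were -0.0498 at SNRNP70 and -0.483 at NPM1. At NPM1 the whole-cell level went from 0.102 and 0.111 to 0.544 and 0.623, and the cytoplasmic was 0.995 and 0.986 against 0.991 and 0.978, so the control levels already differed between the tables. Among mutually exclusive exons they were -0.0558 at LGALS1, 0.148 at CDC123, 0.022 at RPL34 and 0.0609 at RPLP0. Here too the control levels already differed between cytoplasm and whole cells. They were 0.156 and 0.182 against 0.0210 and 0.0541 at LGALS1, and 0.668 and 0.663 against 0.0706 and 0.121 at CDC123. At RPL34 they were 0.573 and 0.544 against 0.961 and 0.974, and at RPLP0 0.0380 and 0.0339 against 0.553 and 0.526. At ATP6AP1 the value for its alternative 5′ splice site was -0.023, with cytoplasmic levels of 0.0161 and 0.0247 against 0.0030 and 0.0015.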

How the results depend on the processing

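The event counts depended on the dispersion model and on the libraries. With every event that had reads tested, and with limma on unweighted log2 odds, 0 events were called in each of the 5 types (946 and 951 SE, 93 and 99 RI, 211 and 288 MXE, 46 and 81 A5SS, 63 and 115 A3SS at an unadjusted p under 0.05). With limma weighted by reads, chosen after seeing the data, 560 SE, 67 RI, 11 MXE, 29 A5SS and 17 A3SS events were called. At least 40 reads of the rarer form gave 373 SE, 10 MXE and 33 A5SS events, 53 RI events (14 higher, 39 lower) and 28 A3SS events (14 higher, 14 lower), and the own dispersion 445 SE, 47 RI, 13 MXE, 21 A5SS and 13 A3SS events. A difference of at least 0.1 kept 10 RI, 14 MXE, 18 A5SS and 10 A3SS events. Leaving out 1 library gave 0 to 267 SE, 0 to 34 RI, 0 to 5 MXE, 2 to 19 A5SS and 0 to 14 A3SS events, 3038 to 3241 genes, a CHERP log2 change of -2.91 to -2.42 and 5 to 19 events that differed between fractions. The own dispersion gave 5 of the latter. The cause was not tested, beyond the fewer samples.

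Leaving out 1 library turned the direction of 3 values. The ATG16L1 difference ranged from -0.0341 to 0.347 (without EGFP siRNA library 2), that of CDCA7L from -0.269 to 0.0229 (without CHERP siRNA library 1) and the fraction difference of SLC25A3 from -0.0485 to 0.0056 (without CHERP siRNA library 1). No paired analysis was possible because the cells of the deposited tables join the libraries without their replicate numbers, so library 1 and 2 name only the place in the cell. With 1 library left in a group, that library was assumed to vary like the other group. A median of 51 reads per tested SE event limits small changes.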
